A study of Mus musculus with 8 samples.

Results

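The genes described here encode the proteins of the cytosolic ribosome. They were taken as the protein-coding rows of the count table whose mouse symbol is Rpl or Rps followed by a number, with or without a closing letter, together with Rplp0, Rplp1, Rplp2, Rpsa and Fau. Kinases of the Rps6k family and loci named as pseudogenes were left out. The rule found 84 of the 53465 genes in the table. Of these, 78 are core ribosomal proteins, with 32 in the small subunit, 43 in the large subunit and 3 in the acidic stalk, and 6 are paralogs of a core gene. Rps4l was not analysed here. Enough reads to test were counted for 82 of the 84, and the other two, Rpl10l and Rpl39l, had at most 1 count in any library.

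RNA was measured in Ba/F3, an immortalized mouse pro-B cell line of C3H background that normally grows only with interleukin-3. The 3 parental libraries, numbered 1 to 3, carry wild-type U2AF35, and the 5 transformed libraries, numbered 4 to 8, carry U2AF35 with the S34F substitution. U2AF35 is the splicing factor subunit that reads the 3′ splice site, and serine 34 is a recurrent mutation site in myeloid neoplasms. The comparison asks which transcripts differ between the 2 states of the line. Whether the replicates were grown apart or taken from distinct clones is not stated in the labels, so each p-value reflects the spread among these libraries alone, and that spread may be technical. Transformation and the introduced allele go together in every library, so they cannot be told apart.

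Each eukaryotic ribosome holds a single copy of nearly every core ribosomal protein, and the stalk proteins are the exception. Messages for these proteins are short, very abundant, and usually start with a cytosine followed by a run of pyrimidines, the 5′ terminal oligopyrimidine motif through which mTOR and LARP1 control their translation. Genes for the proteins are scattered over the genome, and lowered dosage of single members causes Diamond-Blackfan anaemia and related marrow failure.

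Start-site windows show that motif on genes that lay at both ends of the range of change below and on some between, so they are given first. RefSeq promoter sequence (build GRCm38.p6) was matched for 64 members. Each line runs 5′ to 3′ over 30 bases, from 10 bases before the annotated start. Capitals mark the pyrimidine run counted from a C within 5 bases of that start. Pyrimidines before that C stay in lower case, so the full stretch can be longer than the capitals. In Rpl7a it reaches back to the first base of the window. Rpl28, Rpl18 and Rplp2 lie on chromosome 7, at chr7:4792955-4792984 (plus strand), chr7:45718061-45718090 (plus strand) and chr7:141447641-141447670 (plus strand). Rps16, also on chromosome 7 at chr7:28350679-28350708 (plus strand), has no such run in its window and is shown for contrast. Its annotated start lies 37 bases from the GENCODE start, and a run at that other start would not be seen. Rps6 lies at chr4:86857348-86857377 (minus strand) and Rpl15 at chr14:18270967-18270996 (minus strand). Fau and Rpl7a, from the lower end of the range, and Rpl35, slightly below 0, lie at chr19:6057937-6057966 (plus strand), chr2:26910797-26910826 (plus strand) and chr2:39005112-39005141 (minus strand).
Rpl28: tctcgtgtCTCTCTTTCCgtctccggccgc
Rpl18: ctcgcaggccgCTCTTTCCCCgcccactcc
Rplp2: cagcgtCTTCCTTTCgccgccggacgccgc
Rps16: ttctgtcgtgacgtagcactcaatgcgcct
Rps6: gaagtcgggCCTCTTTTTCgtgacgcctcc
Rpl15: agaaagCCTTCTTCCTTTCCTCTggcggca
Fau: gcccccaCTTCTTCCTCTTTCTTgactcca
Rpl7a: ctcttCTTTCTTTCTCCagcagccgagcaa
Rpl35: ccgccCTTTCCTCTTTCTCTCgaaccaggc

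A run of at least 8 pyrimidines that opens with C within 5 bases of the annotated start was found in 19 of the 64 matched members (29.7%) and in 4.37% of all 32851 promoter entries. With a minimum of 5 pyrimidines the share was 43.8% of members and 18.3% of all entries. Pyrimidines before the opening C were not counted, so a match can lie inside a longer run. Over the whole window of 300 bases, read on both strands, the ETS-type core CCGGAAG was present in 37.5% of members and 8.86% of entries. The E-box CACGTG was present in 7.81% of members and 7.15% of entries, and the TATA box TATAAA in 9.38% and 13.6%. These are matches of letters, not measured sites. The annotated starts lie up to 891 bases from the GENCODE start (Rps15a), and a run at another start was not counted. The 19 members with the longer run spanned log2 fold changes of −0.23 to 0.32 (median 0.16), and the 34 tested members without a run of 5 spanned −0.22 to 0.36 (median 0.090). The ranges overlap almost whole, and both ends of the range of change hold genes with the motif.

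In the libraries as a whole, 36122062 to 50305573 reads were assigned to genes, and transformed 7 was the shallowest. Among the transformed libraries, 4 and 7 stood apart in many members, so counts of calls are also given without them. Counts of U2af1, which encodes U2AF35 and could include the introduced copy, were 85.3 to 98.2 CPM (counts scaled to a common effective library size) in parental and 92.0 to 157 CPM in transformed libraries. That difference did not pass (edgeR adjusted p = 0.108), and gene counts do not show the substitution. Of 12 early B-cell markers, 8 were at or under 3 counts in every library (among them Igll1, Ebf1, Pax5, Il7r, Rag1, Dntt and Blnk), and the list summed to 71.7 to 84.6 CPM in parental and 63.7 to 98.4 CPM in transformed libraries. The 3 interleukin-3 receptor genes summed to 5374 to 7689 CPM in parental and 1502 to 6017 CPM in transformed libraries. Mast cell and basophil markers summed to 691 to 904 and 404 to 1496 CPM, with Kit, Fcer1a and Tpsb2 at or under 3 counts, and erythroid markers to 460 to 634 and 410 to 733 CPM. Granulocyte and macrophage markers reached at most 50.5 CPM, with 1 of the 4 tested called lower. T-cell markers (Cd3e, Cd4 and Cd8a at or under 3 counts) and stromal markers (Col1a2, Col3a1, Dcn, Pdgfra and Pdgfrb at or under 3 counts) reached at most 3.74 and 0.424 CPM in sum. The part of these markers in the results below was not tested.

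Ribosomal protein genes took 5.31%, 5.14% and 5.16% of all counts in parental 1, 2 and 3. In transformed 4 to 8 they took 5.94%, 5.44%, 5.43%, 5.31% and 5.34%. Transformed 4 stood highest, and transformed 7 lay just under parental 1, so the groups overlap. The transformed mean was 0.286 percentage points above the parental mean, 5.49% ± 0.256 (SD, n = 5) against 5.20% ± 0.0958 (SD, n = 3), and without transformed 4 the difference was 0.175 points. In bulk RNA of this kind, fewer cells of a type and less RNA per cell cannot be told apart. Named ribosomal protein pseudogenes, 296 loci, held a further 1.71% to 1.97% of counts. Processed copies are nearly identical to the parent message, and for 14 members more than 50% of the reads of parent and copies together were counted at the copies, led by Rps2 (80.0%), Rpl23a (76.4%) and Rpl17 (73.9%). Whether those reads come from the parent message was not tested, and the levels of those members are uncertain.

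Levels within the family were compared in CPM per kilobase of the annotated principal transcript, which ran from 345 to 5130 bases in the members (median 774.5, against 2736 for all tested coding genes). Rplp1, an acidic stalk protein, had the highest level, 4623 ± 242 CPM per kilobase in the parental group (SD, n = 3). Rpl8, Rpl32, Rplp0 and Rpl4 followed at 2458 ± 50.3, 2402 ± 166, 2224 ± 44.6 and 2213 ± 49.1 (SD, n = 3). Rpl8 and Rpl32 differ by less than the spread of Rpl32, and Rplp0 and Rpl4 by less than the spread of either. The median over core genes was 639.9 CPM per kilobase. Among members with at least 10 counts in every library, Rpl3l, a paralog of Rpl3 used in striated muscle, was lowest at 1.41 CPM per kilobase, followed by Rpl21 at 25.2 and Rpl24 at 42.2. Rpl21 had 69.3% of its combined reads at pseudogene loci. Rps15a is listed with the longest transcript of the members, and its 108.9 CPM per kilobase rests on that length.

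**Figure D1:**
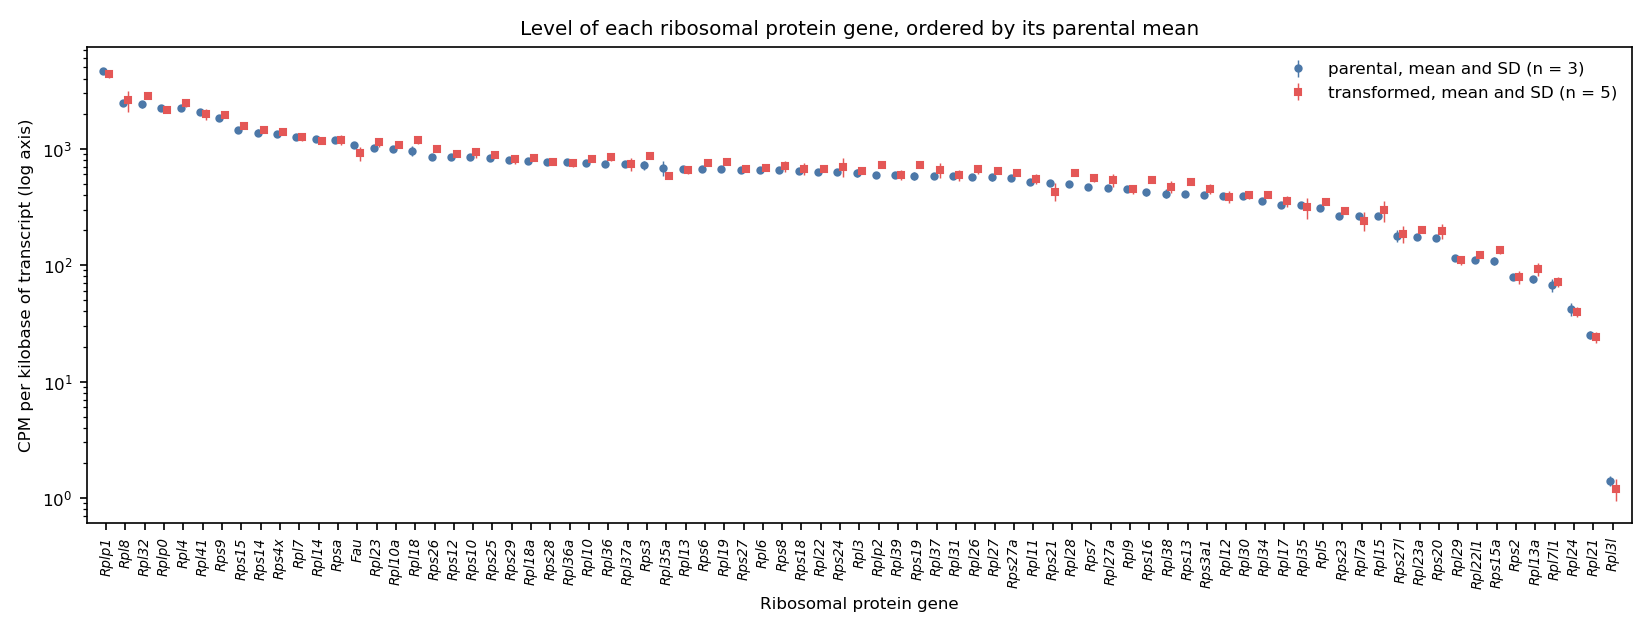
Level of 79 of the tested ribosomal protein genes in CPM per kilobase of transcript (log axis), as mean and SD of 3 parental (circles) and 5 transformed (squares) libraries. Rplp1 is highest, and Rpl3l, at 1.41 in the parental group, lies far below Rpl21, the next lowest at 25.2.

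Comparing transformed with parental libraries, 2 of the 82 tested members were called higher and 0 lower (edgeR quasi-likelihood test, Benjamini-Hochberg adjusted p under 0.05 over 17733 genes), where 0.908% of all genes tested were called higher and 2.1% lower. Rps16, one of those called, encodes a small-subunit protein. Among members 64 had a positive and 18 a negative log2 fold change, with a median of 0.10 against 0.017 for all genes tested. At an unadjusted p under 0.05 there were 18 members higher and 0 lower, together 22.0% of the members. Of all genes tested 1873 were higher and 2064 lower, together 22.2%. The shares were alike with the directions pooled, but all 18 members were higher, while more of all genes were lower than higher. All 5 transformed libraries lay above all 3 parental ones in 26 members, an arrangement found in 8.07% of genes tested, and all lay below in 0, an arrangement found in 9.69%.

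Rps16 (ENSMUSG00000037563; chr7:28350652-28353155, plus strand) encodes a protein whose tail reaches the tRNA in the peptidyl site. It had 504, 460 and 435 CPM in the parental and 628, 585, 601, 578 and 597 CPM in the transformed libraries. Every transformed library lies above every parental one, and the log2 fold change was 0.36 (SE 0.080; 1.28-fold; edgeR adjusted p = 0.0484). With pseudogene reads added, Rps16 gave 0.34 and an adjusted p of 0.0560.

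The calls of members depended on single libraries and on the tool. Without parental 1, 2 or 3, or transformed 5, 6 or 8, edgeR called 0 members, while it called 0.0609%, 0.0166%, 0.0276%, 0.0907%, 0.051% and 0.0735% of all genes higher. Without transformed 4 it called 8 members higher and 1 lower (6.25% and 9.26% of all genes), and without transformed 7 it called 6 and 1 (2.87% and 4.76%). DESeq2 called 13 members higher and 0 lower (4.54% and 5.72% of genes), 11 of the 13 on chromosome 7. With sequencing lane as a covariate edgeR called 0 members higher (0.0846% of genes). In lane 6 alone, with parental 1 and 3 and transformed 5 and 8, it called 9 higher and 1 lower (9.6% and 10.8% of genes). Lane 7 holds only parental 2 against transformed 4, 6 and 7, so calls are not given for it. Rps16 had a log2 fold change of 0.38 in lane 7. The median of the members lay between 0.073 and 0.12 over these settings.

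The members that rose or lay highest share a chromosome, a grouping noticed after the values were seen. All 14 members on chromosome 7 had positive log2 fold changes, from 0.10 to 0.38 (median 0.31), and they hold the 12 highest of the 82. Groups did not overlap in 11 of the 14, and 12 had an unadjusted p under 0.05, all higher. Of all genes 22.2% reached that level, 1873 higher and 2064 lower. Chromosome 7 holds 16.7% of the members and 8.04% of all tested genes. The 1399 other tested genes of chromosome 7, ribosomal pseudogenes aside, had a median of 0.17 and were positive in 68.9%. In 245 of them all transformed libraries lay above all parental ones, and 28.3% had an unadjusted p under 0.05 (321 higher and 75 lower). The 6 tested mitochondrial ribosomal protein genes there were all positive as well (median 0.32).

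Rps13 had 259, 239 and 230 CPM in the parental and 329, 302, 286, 313 and 307 CPM in the transformed libraries (log2 fold change 0.34, edgeR adjusted p = 0.0580). Rps19, the gene most often mutated in Diamond-Blackfan anaemia, had 492, 450.5 and 418 against 630, 527, 580, 548 and 540 CPM (0.32, adjusted p = 0.0932). Rpl28, a large-subunit protein, had 581, 545 and 531 against 747, 681, 675, 670.5 and 663 CPM (0.32, adjusted p = 0.0624). In each of these genes the groups do not overlap. By edgeR over all 8 libraries none passed the adjusted threshold, while by DESeq2 all 3 passed, with adjusted p of 0.00187 for Rps13, 0.0207 for Rps19 and 0.00161 for Rpl28. Rpl18, of the large subunit, had 0.31 and Rps15a 0.30. Rps3, a small-subunit protein at the mRNA entry that also has a role in DNA repair, had 1496, 1359 and 1264 against 1789, 1578, 1599, 1701 and 1660 CPM (0.28, adjusted p = 0.103).

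Rplp2, which pairs with Rplp1 in the stalk that recruits translation factors, had 619, 556 and 556 CPM in the parental and 738, 669, 686, 691 and 721 CPM in the transformed libraries (0.28, edgeR adjusted p = 0.0835). Rpl13a, a large-subunit protein that can leave the ribosome to join a translational repressor complex, had 85.8, 75.1 and 78.01 against 78.7, 89.1, 106.9, 107.7 and 100.9 CPM (0.28). Transformed 4 lay inside the parental range for Rpl13a, and the other 4 lay above it. Rpl27a and Rps9, also on chromosome 7, had 0.23 and 0.10, and their groups overlap. Among parental libraries parental 1 was the highest for both Rps16 and Rpl28, and the median deviation of chromosome 7 members was 0.11 there, −0.018 in parental 2 and −0.083 in parental 3 (log2, from the parental mean).

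**Figure D2:**
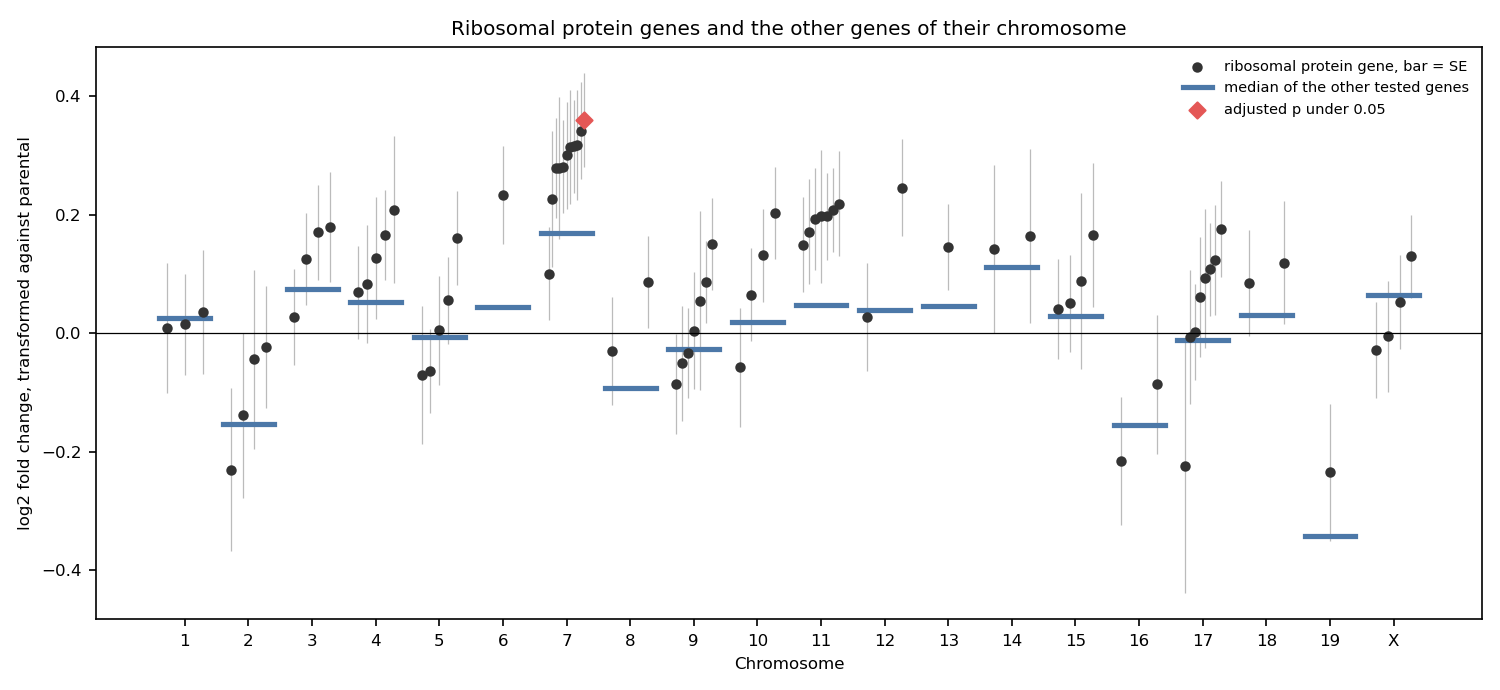
Log2 fold change (transformed against parental, edgeR) of 79 of the tested ribosomal protein genes with SE, arranged by chromosome, with a bar at the median of the other tested genes of that chromosome. The 11 members plotted on chromosome 7 are all above 0, Rps16 (diamond) highest, and the 7 members on chromosomes 2, 16 and 19 are all below 0.

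At the other end, all 7 members on chromosomes 2, 16 and 19 had negative log2 fold changes (median −0.14). The medians of other genes there were negative too, at −0.15, −0.15 and −0.34. These chromosomes were also picked after the values were seen. Chromosome 8 had the next lowest median of other genes, −0.092, but 1 of its 2 members was positive (median 0.028). Fau, which encodes the small-subunit protein eS30 fused to a ubiquitin-like domain, is the only member on chromosome 19. It had 561, 522 and 553 CPM in the parental and 451, 402, 450, 574 and 440 CPM in the transformed libraries. Transformed 7 lay above all parental libraries and the other 4 below all of them, and the log2 fold change of −0.23 did not pass (SE 0.12, edgeR adjusted p = 0.271). Rps21, on chromosome 2, had 205, 200.01 and 190 CPM against 214, 164, 169, 131 and 166 CPM (−0.23, adjusted p = 0.359). Here transformed 4 lay above the parental range and the other 4 below it.

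Rpl7a, also on chromosome 2, showed the same arrangement, with 241, 250.3 and 231 CPM against 291, 199, 209, 189 and 205 CPM (−0.14, edgeR adjusted p = 0.602). Rpl35, at the exit of the nascent-chain tunnel, and Rpl12, at the base of the stalk, complete the chromosome 2 set with −0.044 and −0.023. In transformed 4 the 4 members on chromosome 2 had a median deviation of 0.25, against −0.26, −0.20, −0.18 and −0.24 in transformed 5 to 8. Other genes of chromosome 2 had a median of 0.053 in transformed 4 and −0.22 to −0.25 in the others. Rpl35a, a Diamond-Blackfan gene on chromosome 16, had 277, 359 and 363 CPM in the parental and 317, 289, 278, 278 and 271 CPM in the transformed libraries (−0.22, adjusted p = 0.277). Parental 1 stood low for it, and chromosome 16 as a whole had a median of −0.18 in parental 1. Rpl24, the other member there, had −0.086.

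Across the 82 members the log2 fold change followed the median of the other genes of the same chromosome with Pearson's r = 0.80, and over the 68 members off chromosome 7 with r = 0.68. With the 50 nearest other tested genes in place of the chromosome, r was 0.71. These are descriptions across genes. Members of a chromosome share 1 reference value, all points share the same 8 libraries, and genes are not independent replicates. Within single transformed libraries, r with the chromosome medians was 0.62, 0.83, 0.76, 0.49 and 0.79 in transformed 4 to 8, and in the parental libraries, as deviations from their own mean, 0.75, 0.44 and 0.75. What lies behind the shared level of a chromosome was not tested.

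Taking the chromosome medians away did not bring the members to 0. Their median was then 0.084, and it was 0.11 after the median of the 50 nearest genes was taken away, with 67 of the 82 above those neighbours. By construction 49.8% of other genes lie above their chromosome's median. The share of other genes above their own neighbours was not counted. Of the chromosome 7 members 13 of 14 stayed above their neighbours, by a median of 0.16, and the members elsewhere by 0.10. Rps16 kept 0.19 of its log2 fold change above the chromosome 7 median. Fau, Rpl24 and Rpl7a turned positive, at 0.11, 0.068 and 0.015. Off chromosome 7 the members' median before any subtraction was 0.076, and 0 of those 68 members passed by edgeR in either direction. At an unadjusted p under 0.05 there were 6 higher and 0 lower, together 8.82% of the 68. That is a smaller share than the 22.2% of all genes tested that reached that level, 1873 higher and 2064 lower.

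**Figure D3:**
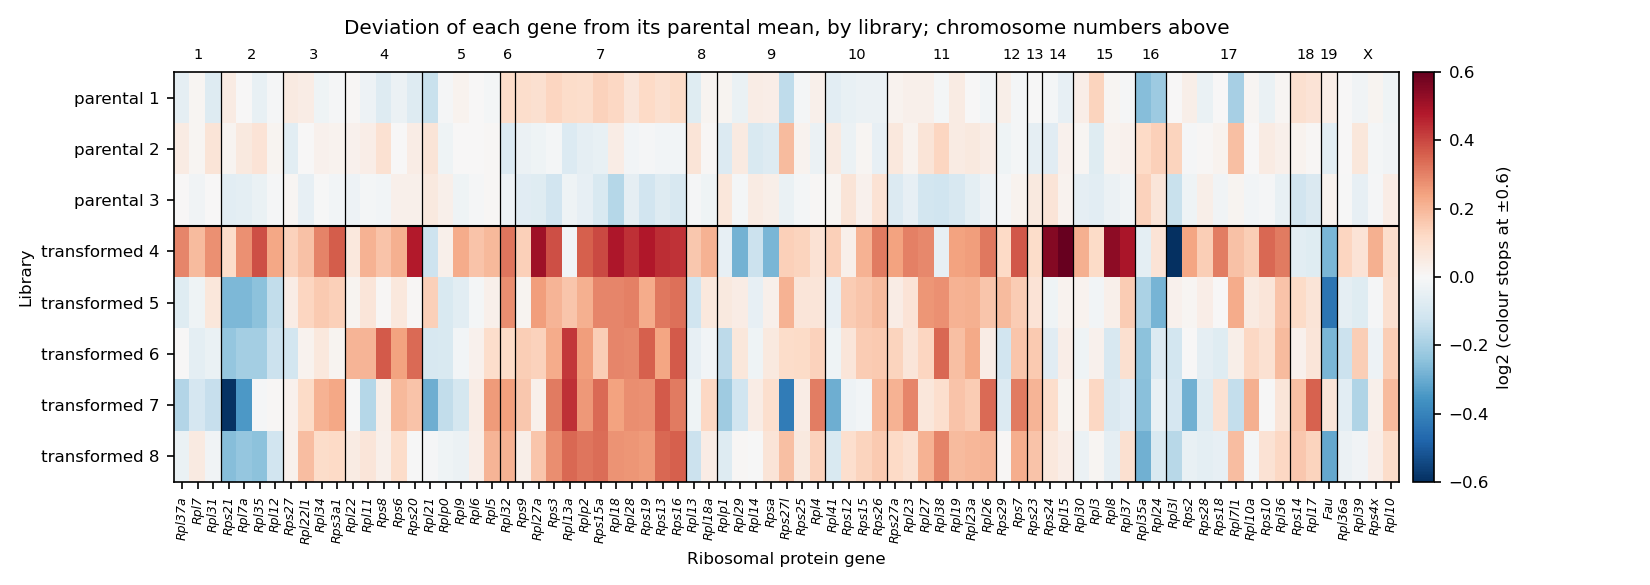
Deviation of 79 of the tested ribosomal protein genes (columns, by chromosome) from their parental means in each of the 8 libraries (rows), in log2 units, red above and blue below. The block of chromosome 7 is mostly red in all 5 transformed libraries, with Rpl13a in transformed 4 an exception, and transformed 4 and transformed 7 carry deviations on other chromosomes that transformed 5, 6 and 8 do not show.

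Transformed 4 stood apart within its group. The median deviation of the 82 members was 0.21 there and 0.071, 0.072, 0.071 and 0.074 in transformed 5 to 8, with 70 of 82 members above their parental mean in transformed 4. Rpl15, of the large subunit on chromosome 14, had 204, 215 and 214 CPM in the parental libraries, 321 in transformed 4, and 214, 217, 213 and 217 CPM in transformed 5 to 8. Rps24, the other member on chromosome 14 and a Diamond-Blackfan gene, had 1493 CPM in transformed 4, and 971 to 1094 CPM in the other 7 libraries. Rpl8, which lines the peptidyl transferase region, had 3033 CPM in transformed 4 and 1954 to 2135 CPM elsewhere, and Rpl37, like Rpl8 on chromosome 15, had 684 against 465 to 542 CPM. Other genes of chromosomes 14 and 15 had medians of 0.31 and 0.20 in transformed 4. Rpl15, Rps24, Rpl8 and Rpl37 were singled out after their values were seen. Their log2 fold changes over all libraries, 0.16, 0.14, 0.087 and 0.17, did not pass, and without transformed 4 Rpl15 was at 0.028 and Rpl37 at 0.072. Rps24 and Rpl8 were at −0.011 and −0.039 without transformed 4 and 7.

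Rpsa, the small-subunit protein also known as the laminin receptor precursor, went the other way in transformed 4. It had 1945, 1795 and 1940 CPM in the parental libraries, 1566 in transformed 4 and 1932, 1971, 2030 and 1993 in transformed 5 to 8. Its log2 fold change was 0.0037, and the other genes of its chromosome, 9, had a median of −0.14 in transformed 4. Transformed 7, the shallowest library, was lowest of the 8 for Rps21 (131 CPM) and for Rps27l, which had 66.3 CPM there and 80.0 to 102.6 CPM in the other libraries. Member deviations ran with the logarithm of transcript length in transformed 7 at r = 0.24 and in the other 7 libraries at −0.11 to 0.15. The 468 other coding genes with transcripts under 800 bases had a median of −0.075 in transformed 7 and of 0.037 to 0.078 in the other transformed libraries. The part of transcript length in the transformed 7 values was not tested further.

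With transformed 4 and 7 left out together, a choice made after the values were seen, edgeR called 16 members higher and 4 lower, where 12.8% and 16.1% of all genes were called. Of the 16, 12 lie on chromosome 7. The others are Rpl19, Rpl23a and Rpl38 on chromosome 11 and Rps7 on chromosome 12. The 4 called lower, Fau, Rps21, Rpl7a and Rpl35, lie on chromosomes 19 and 2. The 4 lower calls are a smaller share of the 82 members than the 16.1% is of all genes.

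**Figure D4:**
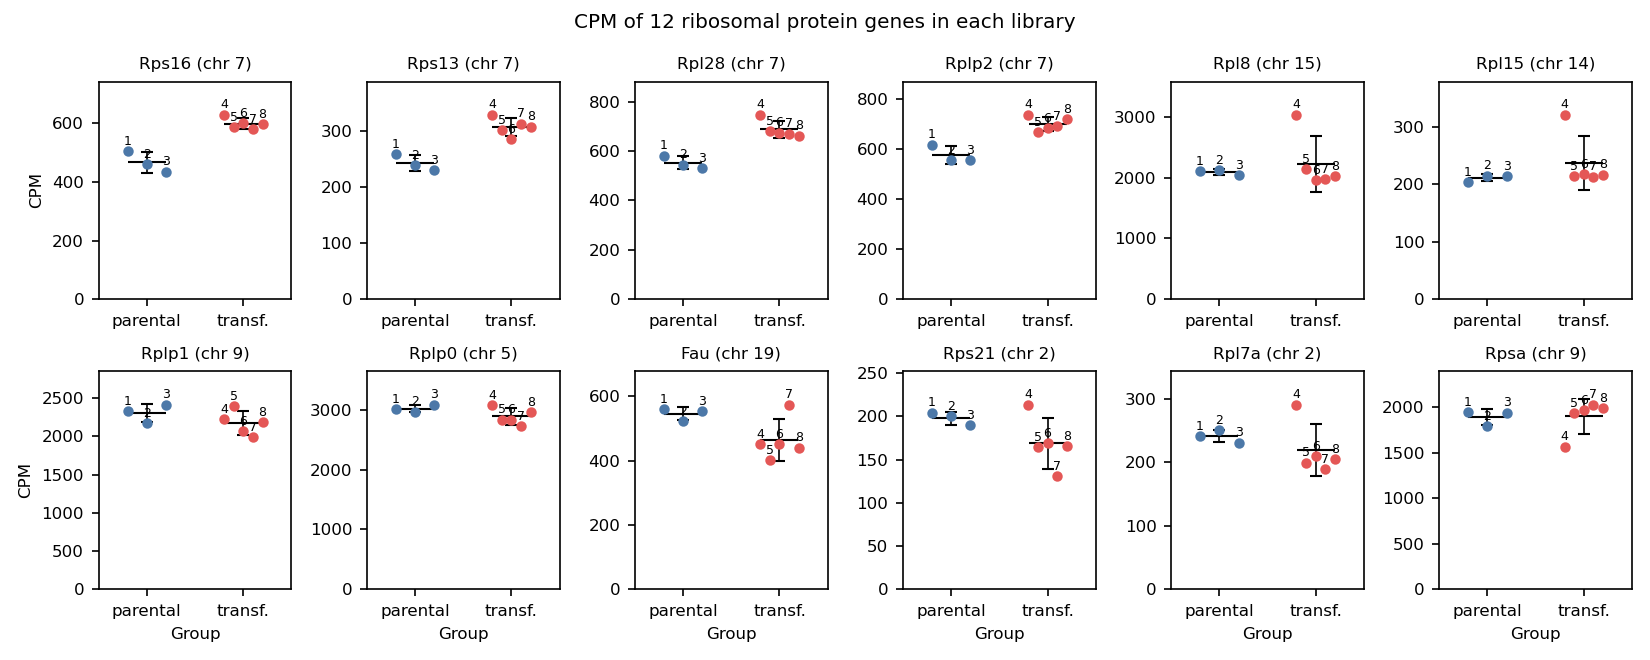
CPM of 12 ribosomal protein genes in each library (linear axis from 0, numbers are replicate numbers), with mean and SD of 3 parental and 5 transformed libraries. Rps16, Rps13, Rpl28 and Rplp2 separate the groups, while Rpl8 and Rpl15 are highest in transformed 4 and Fau, Rps21 and Rpl7a each have 1 transformed library above the parental range.

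By subunit, 29 of the 32 core small-subunit genes had positive log2 fold changes (median 0.14, 2 called higher by edgeR). Of the 43 large-subunit genes, 31 did (median 0.087, 0 called by edgeR). EdgeR called 0.908% of all genes higher. At an unadjusted p under 0.05 were 10 small-subunit (31.25%) and 7 large-subunit genes (16.3%), all higher. Of all genes 22.2% reached that level, with the directions pooled. Chromosome 7 carries more of the small-subunit genes, and off that chromosome the medians were 0.086 for 23 small-subunit and 0.069 for 39 large-subunit genes. Off chromosome 7, 2 small-subunit (8.70%) and 4 large-subunit genes (10.3%) reached that unadjusted level, all higher. The stalk split. Rplp2 is described above, while Rplp0, the stalk base, had 3006, 2968 and 3087 CPM in the parental and 3082, 2835, 2836, 2726 and 2964 CPM in the transformed libraries (−0.064, edgeR adjusted p = 0.639). Rplp1 had 2327, 2177 and 2416 against 2228, 2400, 2068, 1986 and 2186 CPM (−0.086, adjusted p = 0.592), and both overlap between groups.

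Rpl5 and Rpl11 join 5S rRNA in the particle that binds Mdm2 when ribosome assembly stalls. Rpl5 had 633, 641 and 640.0 CPM in the parental and 730, 652, 687, 761 and 734 CPM in the transformed libraries. The groups do not overlap, and the difference did not pass (0.16, SE 0.079, edgeR adjusted p = 0.268). Rpl11 had 423, 444 and 428 against 498, 454, 497, 384 and 454 CPM, with transformed 7 below and the other 4 above the parental range (0.083, adjusted p = 0.671). Of 9 genes mutated in Diamond-Blackfan anaemia, 8 had positive values and 0 were called by edgeR (median 0.16; 4 higher and 0 lower at an unadjusted p under 0.05). Of 8 genes around the peptide exit tunnel, 6 were positive and 0 called by edgeR (median 0.13; 3 higher and 0 lower at an unadjusted p under 0.05). Of all genes tested 22.2% reached that unadjusted level, 1873 higher and 2064 lower.

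Rps27a, made as a fusion with ubiquitin, had 358, 369 and 333 CPM against 417, 365, 387, 407 and 384 CPM (0.15, edgeR adjusted p = 0.312). Rps6, the substrate of the S6 kinases, had 575, 590 and 601 against 682, 616, 695, 673 and 635 CPM, without overlap (0.17, adjusted p = 0.240). Rpl10, which is loaded late in large-subunit maturation, had 591, 592 and 619 against 647, 641, 665, 684 and 647 CPM, also without overlap (0.13, adjusted p = 0.312). Rps14, the gene whose loss is tied to the anaemia of the 5q deletion syndrome, had 873, 830 and 754 against 782, 884, 832, 928 and 915 CPM (0.084, adjusted p = 0.624). Rpl32, among the highest in level, had 1338, 1173 and 1215 against 1549, 1505, 1342, 1468 and 1434 CPM (0.23, adjusted p = 0.143). None of these 5 genes passed. Rpl21 and Rpl3 had −0.071 and 0.050 and did not pass either.

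Some of the paralogs replace a core protein in particular tissues or states. Rpl10l and Rpl39l, which are used in male germ cells, had 0 or 1 count per library, and a count of 0 allows up to 0.0596 to 0.0831 CPM at these depths (3 counts, counting error only). Rpl3l was present at 1.75 to 2.12 CPM in the parental and 1.03 to 1.96 CPM in the transformed libraries. Counts of Rpl22l1 came to 20.5% ± 0.512 of those of Rpl22 in parental (SD, n = 3) and 21.4% ± 1.90 in transformed libraries (SD, n = 5). Rpl7l1 came to 12.1% ± 1.58 and 12.8% ± 1.06 of Rpl7, and Rps27l, a p53 target, to 39.5% ± 6.54 and 40.1% ± 6.82 of Rps27. Rpl3l was at 0.233% ± 0.0299 and 0.193% ± 0.0465 of Rpl3. The log2 ratios of these 4 pairs changed by −0.30 (Rpl3l), 0.084 (Rpl7l1), 0.058 (Rpl22l1) and 0.018 (Rps27l), and none passed in an exact permutation test over libraries (2-sided; p = 0.321, 0.464, 0.571 and 0.946; adjusted over the 4 pairs 0.762, 0.762, 0.762 and 0.946; the smallest p that 3 against 5 allows is 0.0179). The Rpl3l difference ranged from −0.38 without transformed 5 to −0.12 without transformed 4. Without transformed 6, Rpl22l1 to Rpl22 changed by 0.12 with an unadjusted exact permutation p of 0.0286. The core partner Rpl39 had −0.0055, Rps4x 0.053, Rpl22 0.069, Rps27 0.027 and Rpl7 0.015 as log2 fold changes, and none of them passed.

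Around the ribosome, the other genes were read from lists. Of 21 chaperones, importers and assembly factors for ribosomal proteins, 20 were tested, 19 had positive values and 2 were called higher and 0 lower by edgeR, against 0.908% and 2.1% of all genes. The median was 0.43, and 14 were at an unadjusted p under 0.05, all higher. Of all genes 22.2% reached that level, 1873 higher and 2064 lower. That 22.2%, which pools the directions, is also the background for each list that follows. Ipo5, an importin that carries ribosomal proteins into the nucleus, had 538, 429 and 411 CPM against 707, 699, 676, 595 and 736 CPM (0.57, adjusted p = 0.0375). Brix1, a large-subunit assembly factor, had 88.6, 102.9 and 88.4 against 114, 140.4, 121, 124 and 136 CPM (0.45, adjusted p = 0.0484). Groups do not overlap in either gene. Ipo5 lies on chromosome 14 and Brix1 on chromosome 15. The genes of this list on chromosome 7 had log2 fold changes of 0.29 to 0.74, and all of them were among the 14. The 2 calls fell to 0 without any 1 of parental 1, 2 and 3 and transformed 5, 6 and 8, and rose to 13 without transformed 4, where 6.25% of all genes were called higher. With lane as a covariate both were lost (edgeR adjusted p = 0.0632 for Ipo5 and 0.0897 for Brix1). DESeq2 called 9 of the list higher and 0 lower, where it called 4.54% and 5.72% of all genes. Those shares are also the DESeq2 background for each list that follows.

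Translation factors with terminal pyrimidine messages had 15 of 20 positive values and 0 calls by edgeR, against 2 higher and 0 lower by DESeq2 (median 0.12; 5 at an unadjusted p under 0.05; Eif3f, 0.29, adjusted p = 0.117 by edgeR). Genes of mTOR and LARP1 control had 15 of 19 positive values and 0 calls by edgeR, against 3 higher and 1 lower by DESeq2 (median 0.24; 8 at an unadjusted p under 0.05). Larp1 itself, which holds terminal pyrimidine messages back from translation, had 357, 358 and 284 CPM against 368, 519, 484, 517 and 496 CPM (0.52, adjusted p = 0.0721 by edgeR and 0.0142 by DESeq2). Factors tied to transcription of ribosomal protein genes had 5 of 14 positive values and 0 calls by edgeR (median −0.066; 1 at an unadjusted p under 0.05). That gene, Max, had 0.31 with an adjusted p of 0.108 by edgeR and 0.0476 by DESeq2, which called 1 higher and 0 lower. Genes of the p53 arm had 5 of 12 positive values and 0 calls by either tool (median −0.11; 1 at an unadjusted p under 0.05; Ccng1, −0.34, adjusted p = 0.119 by edgeR). By comparison, 77 tested mitochondrial ribosomal protein genes, which serve the organelle's own ribosome, had 58 positive values, 0 calls by edgeR, against 7 higher and 1 lower by DESeq2 (13 at an unadjusted p under 0.05), and a median of 0.12, close to the 0.10 of the cytosolic set.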

How the data were processed

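The deposited file is a table of raw read counts per gene, made by the authors with STAR 2.5.3a and featureCounts 1.5.3 on mm10 (GRCm38.p5), per the submitters' processing notes; the library kit was TruSeq on polyA RNA, per the labels' protocols. For strand and multi-mapping, the settings used were not given in the sources used here. All 8 count columns matched a library, with 0 columns left over. Symbols, positions and transcript lengths came from GENCODE (GRCm38).

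Genes passing filterByExpr were tested with edgeR 4.0.16 (R 4.3.3), TMM scaling, robust quasi-likelihood and Benjamini-Hochberg adjustment at 0.05 over 17733 genes. CPM values are TMM scaled, and per-library deviations are log2 CPM with a prior count of 2. DESeq2 1.42.0 and limma 3.58.1 were alternatives. The script was tested on simulated data: for 3 against 5 libraries (17547 genes) it recovered 11.9% of 1.5-fold, 50.7% of 2-fold and 78.8% of 4-fold changes. The changed genes were drawn from all tested genes, so these shares are not specific to the abundant members. All member changes seen here were smaller than 1.5-fold, and how many changes of that size would be found among members was not tested.

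The members and lists were chosen with earlier results of these data known. Named members are those called, the 10 largest and 5 smallest log2 fold changes at an average log2 CPM of at least 3, the genes of the stalk, 5S particle, ubiquitin fusions, named roles and paralog pairs, and the 3 highest and 3 lowest levels. From each list the called genes (at most 3) or the gene with the smallest p is named. Other members named with values were chosen after these were seen. Paralog ratios used log2 of counts plus 2. A few genes are not reported here by name or value, and they are left out of the figures, but they are part of the counts and medians.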

Additional observations from a re-analysis of the deposited data

Results flagged for a closer look

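Each of 54 values reported above was checked for a single library far from the others among the 5 transformed ones, meaning a gap to its nearest neighbour larger than Dixon's 95% limit for the group's range. For independent values not chosen by what they show, chance marks about 1 such group in 20. That rate does not apply here, because Rpl15 and Rps24 were singled out after their values were seen. Many of the values also depend on each other. Of the 54 values, 17 were marked, 13 for transformed 4, 2 for transformed 6 and 2 for transformed 7. The members' share of counts (5.94% in transformed 4, 5.31% to 5.44% in the other 4) and their median deviation (0.21 against 0.071 to 0.074) were both among them. Transformed 4 was the highest for Rpl15 (321 CPM), Rpl18 (904), Rpl28 (747), Rpl7a (291), Rpl8 (3033), Rps24 (1493) and Rps4x (1523), and the lowest for Rpsa (1566), Rpl3l (1.03) and Larp1 (368). The log2 ratio of Rpl3l to Rpl3 was −9.72 there and −8.94 to −8.69 in the other 4. Transformed 7 was the highest for Fau (574 CPM against 402 to 451) and the lowest for Rps27l (66.3 CPM against 95.8 to 102.6). Transformed 6 had the highest Max (193 CPM against 158 to 167) and the lowest log2 ratio of Rpl22l1 to Rpl22 (−2.47 against −2.18 to −2.15).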

How the results depend on the processing

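No paired analysis was possible because the groups share no replicate number. The median log2 fold change of members stayed positive under every alternative run, and between 0.067 and 0.12. The difference in their share of counts was 0.175 to 0.341 points with 1 library left out, 0.401 with pseudogene counts added and 0.326 as a share of non-mitochondrial coding counts. Lane 7 holds only parental 2 among the parental libraries, so calls are not given for it. The number of members called higher was 13 with DESeq2, 1 with upper-quartile factors, 1 with pseudogene counts added, 0 without a low-count filter, 0 with lane as a covariate and 9 in lane 6 (1 lower). It was 16 (4 lower) without transformed 4 and 7, an alternative chosen after seeing the data, as were the added pseudogene counts and the removal of chromosome or neighbour medians. With 1 library left out it ranged from 0 to 8, and the number lower from 0 to 1. A single lane or a library left out means fewer samples, and the cause of the other shifts was not tested.

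Over 48 named genes and all alternatives, 44 of 1104 values changed sign, in 16 genes, and 0 of these genes had been called. Rpsa was at −0.0023 with limma-voom, −0.0019 with upper-quartile factors, −0.0066 without a filter, −0.017 with the length trend removed and −0.0045 with the GC trend removed. Rpl39 was at 0.00014 with RLE factors. In lane 6, Rpl21 was at 0.12, Rpl3 at −0.027, Rpl39 at 0.00095, Rpl3l at 0.0087 and Rps24 at −0.0018. In lane 7, Rpl7 was at −0.00080, Rpl7l1 at −0.16 and Rps27l at −0.23. Without transformed 4 and 7, Rpl21 was at 0.013, Rpl39 at 0.021, Rpl7 at −0.0104, Rpl8 at −0.039, Rps24 at −0.011 and Rps27 at −0.012. With the length trend removed, Rpl22 was at −0.0026, Rpl7 at −0.0057, Rps27 at −0.052 and Rps27l at −0.013, and with the GC trend removed Rpl7 was at −0.048 and Rps27l at −0.029. With chromosome medians removed, Fau was at 0.11, Rpl24 at 0.068, Rpl7a at 0.015, Rpl7 at −0.011, Rps27 at −0.048 and Rps4x at −0.012. With 1 library left out, Rpl39 ranged from −0.040 to 0.038, Rpl7 from −0.034 to 0.043, Rpl8 from −0.051 to 0.14, Rps27 from −0.0035 to 0.066, Rps27l from −0.011 to 0.17 and Rpsa from −0.024 to 0.065. The log2 ratio differences ranged from −0.021 to 0.17 for Rpl7l1 to Rpl7, from −0.083 to 0.15 for Rps27l to Rps27, from −0.38 to −0.12 for Rpl3l to Rpl3 and from 0.038 to 0.12 for Rpl22l1 to Rpl22, the last with an unadjusted exact permutation p of 0.0286 without transformed 6.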
